A study of Mus musculus with 4 samples.

Results

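The genes described are 10 markers of astrocytes, measured in mouse prefrontal cortex: Gfap, Vim, Aqp4, Slc1a2, Slc1a3, S100b, Glul, Gja1, Gjb6 and Sox9. They were chosen by the gene name that the array's annotation gives each probe, and all 10 were found among the 27248 gene names on the array, with 28 probes. The mice were of strain B6J and 3 months old. From postnatal day 21, when they were weaned, they had been kept for about 70 days on a starch or a sucrose diet. Some were heterozygous for Glo1. Glo1 encodes the methylglyoxal-detoxifying enzyme glyoxalase 1. There were 4 groups: wild-type on starch, which the study used as its control, wild-type on sucrose, Glo1 heterozygous on starch and Glo1 heterozygous on sucrose. Within each group 3 independent RNA samples were mixed and hybridised to 1 one-colour array, so each group is 1 pool on 1 array and no difference between groups has a replicate error. The nature of the Glo1 allele is not given in the sources used here.

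Astrocytes are the glial cells that take up glutamate released at synapses, buffer potassium and water through endfeet on blood vessels, and form a network coupled by gap junctions. Gfap, a subunit of their intermediate filaments, is sparse in the grey matter of the cortex and abundant in white matter, at the brain surface and along the ventricles, and it is the most widely used marker of reactive astrocytes. Several of the 10 genes are not made by astrocytes alone: Vim is also made by endothelial cells and ependyma, S100b by oligodendrocyte lineage cells and ependyma, and Aqp4 and Sox9 by ependyma. In pooled tissue RNA, fewer cells of a type and less RNA per cell cannot be told apart.

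Gfap had the widest range over the arrays, and for Sox9, Slc1a3, Gja1 and Aqp4 the direction of some differences turned on which probe was read. The start of the probes above background is shown for Gfap and for Sox9 and Slc1a3, which have 2 such probes each, as the first 30 bases of each 60-base probe, 5′ to 3′, in lower case throughout. The 2 Gfap probes lie on the minus strand of chromosome 11 at chr11:102751813-102751872 and chr11:102748864-102748923 (build mm9), 2949 bases apart, and share no run of more than 6 bases. The array's annotation pairs the first with Gfap transcript variant 1 (NM_001131020) and the other with variant 2 (NM_010277).
Gfap, variant 1 probe: ggttatattaacagagctagcctatgctaa
Gfap, variant 2 probe: tttgaggaactgaaacgtgttgtgttcaag
Sox9, brighter probe (chr11:112647560-112647619): ttggggggtgagctttgattaattccccag
Sox9, dimmer probe (chr11:112646642-112646701): tcctactacagtcacgcagccggccagggc
Slc1a3, brighter probe (chr15:8584747-8584806): tctcttgacaaatcattcaaaagtctcatc
Slc1a3, dimmer probe (chr15:8630573-8630632): cacttgaggctagaattttagtcttgtctt

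A level is a processed signal divided by the 75th percentile of the non-control spots of its array, and differences are log2 differences of these levels between a pair of arrays. A level of 1 probe cannot be set against that of another. The 75th percentiles were 1780 to 1929 intensity units, 77.6% to 80.2% of those spots were well above background, and none was saturated. Of the 28 probes, 22 were well above background on all 4 arrays, at least 1 for each gene. A gene is represented by its brightest probe. The other 6 were dim probes that the annotation pairs with further transcripts of Aqp4, Slc1a2, Slc1a3 and Gja1, 5 of them not well above background on any array and 1, of Slc1a2, on 2 arrays only. Spot error was available from repeated spots and from the scanner software. In the brightest quartile, 291 probes were printed 10 times on each array. Their spread within an array, scaled to a difference between single spots of a pair of arrays, gave an SD of 0.068. This SD holds no error that arises between arrays. In the next quartile, where Gja1 and Sox9 lie, 5 such probes gave 0.118. Below these, 3 such probes gave 0.131 in the second-dimmest quartile, and a single one gave 0.659 in the dimmest. Differences of the dimmest probes are therefore less certain. The software's own error model gave 0.204 for the Gfap differences. Neither holds the spread between mice or between pools, and all 4 arrays lay on 1 slide, whose positions and the groups cannot be told apart. The check of the genotype labels was Glo1, whose brightest probe had levels of 4.04 and 5.53 on the wild-type starch and sucrose arrays and of 2.74 and 3.04 on the heterozygous ones.

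The arrays also differed in markers of cells and regions outside the cortical astrocyte. The heterozygous sucrose array stood apart in choroid plexus genes: 9 of 10 listed genes were measured, all 9 were at least 2-fold higher there than on each of the other arrays, and their summed level was 72.2 against 1.26 to 2.51. Ependymal genes summed to 4.21 on that array and to 2.01 to 2.42 on the others. Olfactory bulb genes summed to 11.8 and 12.2 on the starch arrays, and on the sucrose arrays to 3.68 (wild-type) and 6.98 (heterozygous). Striatal genes summed to 63.8 and 58.8 on the wild-type sucrose and heterozygous starch arrays and to 39.8 and 35 on the others. Neuronal genes summed to 310.0 to 333.3 and the other astrocyte genes to 630.1 to 708.9. A sum is led by its brightest probes, and Ttr alone gave 58.7 of the choroid plexus sum on the heterozygous sucrose array.

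Of the 10, Gfap had the widest range over the 4 arrays, 1.16 on the log2 scale. On starch its level was 2.05 (wild-type) and 2.24 (heterozygous), and on sucrose 1.29 and 2.86 in that order. The second probe had levels of 0.706 and 0.708 on starch and 0.466 and 0.891 on sucrose. In both probes the wild-type sucrose array was the lowest, the heterozygous sucrose array the highest, and the starch arrays lay between them.

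On sucrose, Gfap was 62.6% of its starch level in wild-type mice, a difference of -0.68 (variant 2 probe -0.60), and 127.7% of it in heterozygous mice, a difference of 0.35 (0.33). Between genotypes the arrays differed by 0.13 on starch (0.00 for the variant 2 probe) and by 1.16, or 222.7% of the wild-type level, on sucrose (0.93). Only the last passed 2-fold, in the brighter probe alone. Each diet difference and the genotype difference on sucrose exceeded the software's error of 0.204, while the genotype difference on starch did not. Against wild-type mice on starch, heterozygous mice on sucrose had 139.5% of the signal (0.48, and 0.34 for the variant 2 probe). The interaction, which is the heterozygous diet difference less the wild-type one, was 1.03 for the brighter probe and 0.93 for the other.

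These values can be read against all 20655 genes measured on the 4 arrays. For genotype on sucrose, 1.71% of the genes passed 2-fold, but among the 8625 genes at least as bright as Gja1, the dimmest of the 10 markers, 0.22% did, 19 genes in all. Gfap was among the 12 of these 19 that were higher in heterozygous mice, and 11 of the bright genes differed by as much as Gfap or more, itself included. For diet in wild-type mice, 76 bright genes (0.881%) differed by as much as Gfap or more, and for diet in heterozygous mice 353 (4.09%). For the interaction 25 (0.29%) did. The genotype difference of Gfap on starch was matched by 2854 (33.1%). The scatter of the bright genes shows the same placement.

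**Figure D1:**
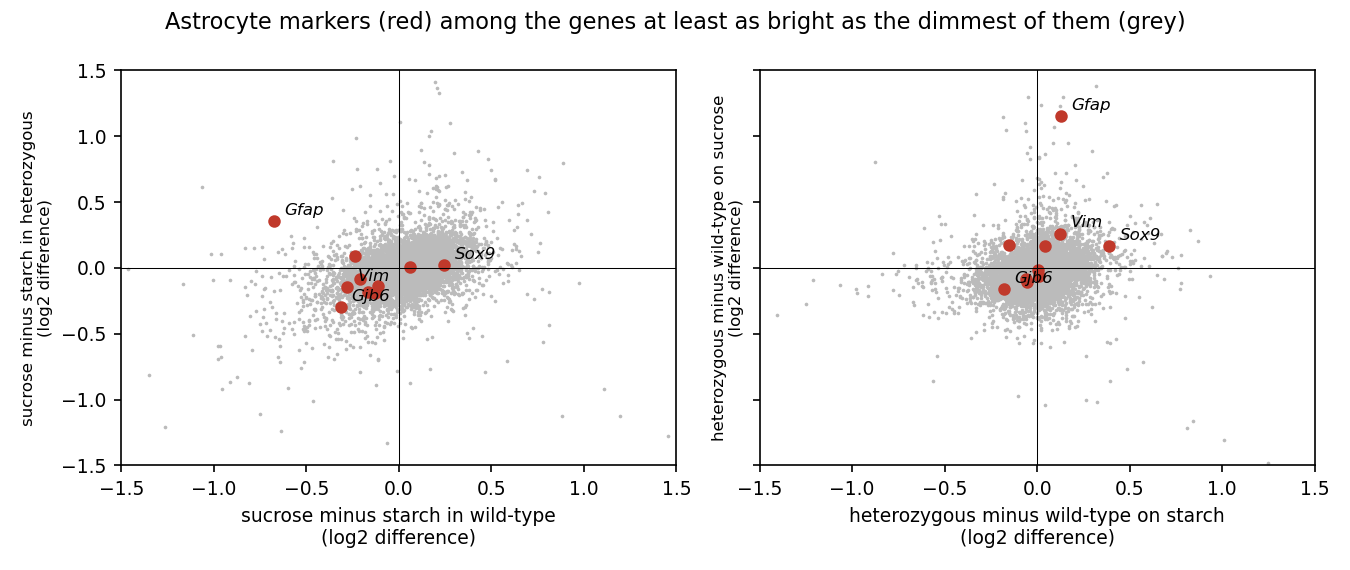
Log2 difference between sucrose and starch in heterozygous against wild-type mice (left) and between heterozygous and wild-type mice on sucrose against starch (right), for the 8625 genes at least as bright as the dimmest marker (grey points) and the 10 astrocyte markers (red). Gfap lies away from the other 9, which sit within the cloud; 8 and 2 genes lie outside the left and right axes.

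Vim, the other filament subunit of the group, had levels of 3.23 and 2.66 on the starch and sucrose arrays of wild-type mice and of 3.52 and 3.18 on those of heterozygous mice, the order kept for the genes that follow. The wild-type sucrose array was the lowest here too, but the heterozygous sucrose array did not exceed the starch arrays. The diet differences were -0.28 (wild-type) and -0.14 (heterozygous), and the genotype differences 0.13 and 0.26 on starch and sucrose. Vim, on chromosome 2 (mm9 13504232 to 13504291), has 1 probe. Of the 10 other intermediate filament and linker genes, none passed 2-fold by its brightest probe. Dimmer probes of 2 of them did: a Prph (peripherin) probe had levels of 0.0177, 0.248, 0.0149 and 0.0157, high on the wild-type sucrose array alone (3.803 between the wild-type arrays and -3.98 between the sucrose arrays), where the brightest Prph probe differed by -0.25 and -0.02. A dim Des (desmin) probe differed by -1.06 for genotype on starch, against 0.20 for the brightest one. Nes, the filament of neural progenitors and activated glia, differed by -0.41 and -0.23 with diet in wild-type and heterozygous mice, and Synm, which joins Gfap and vimentin filaments, by 0.21 and 0.19. The list's medians were -0.01 and -0.10 for diet and 0.07 and -0.05 for genotype on starch and sucrose.

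**Figure D2:**
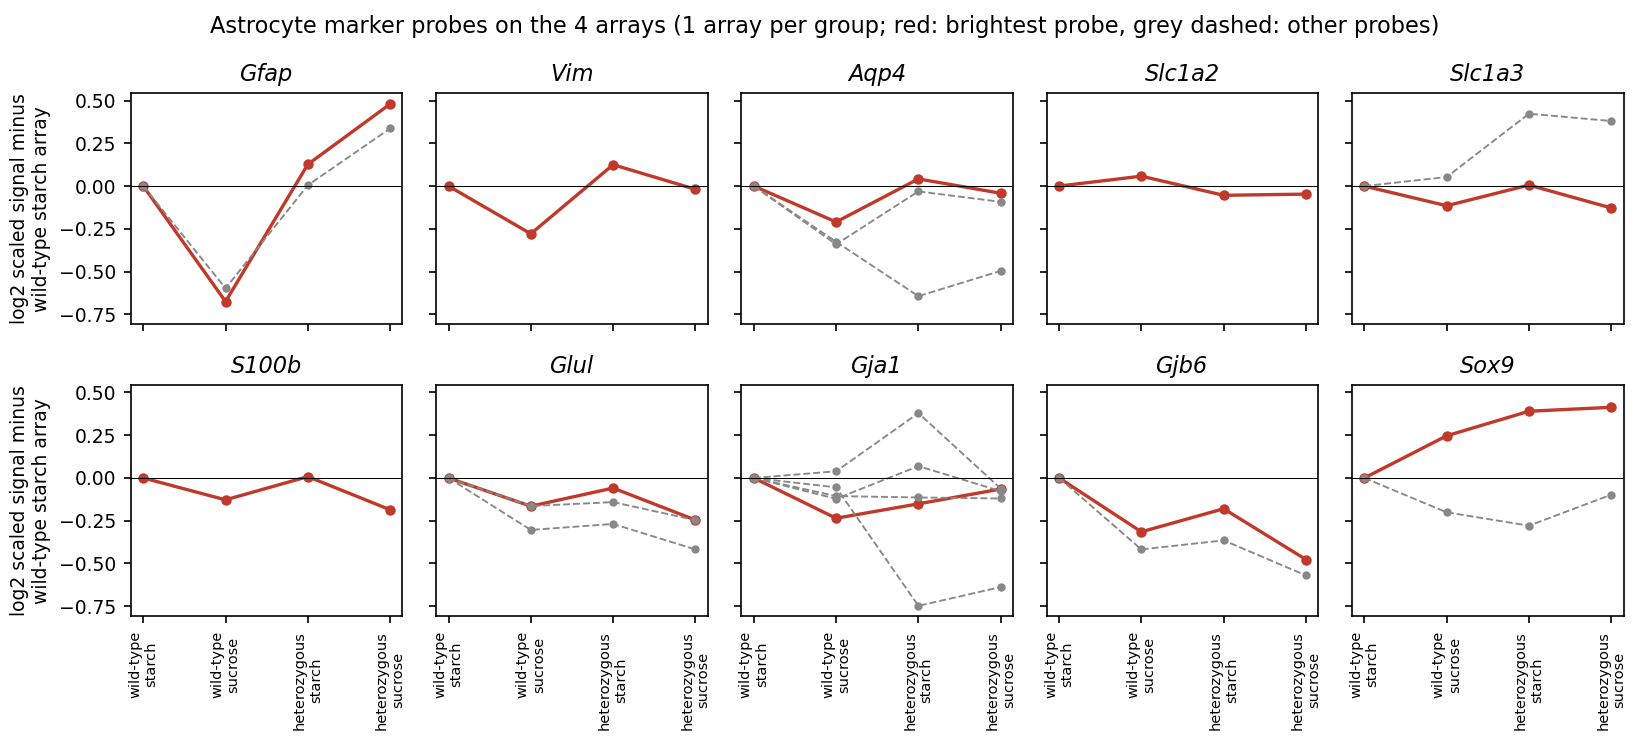
Log2 scaled signal of every probe well above background on all arrays, relative to the wild-type starch array, for the 10 markers on the 4 arrays (1 array a group). Red is a gene's brightest probe, dashed grey the others, and lines join values of 1 probe. Both Gfap probes are lowest on the wild-type sucrose and highest on the heterozygous sucrose array, while the Sox9, Slc1a3 and Gja1 probes part from one another.

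Aqp4, the water channel of the endfeet, had levels of 3.08, 2.67, 3.17 and 3.00 in the same order of arrays. Its brightest probe lies on chromosome 18 (mm9 15547951 to 15548010). The wild-type sucrose array was the lowest, with a diet difference of -0.21 in wild-type mice against -0.08 in heterozygous mice. All 3 probes above background were lower on sucrose in wild-type mice, by -0.34 to -0.21, whereas for genotype on starch they ran from -0.64 to 0.04, with the dimmest probe the lowest. Among 12 endfoot genes for potassium, water and anchoring, the potassium channel Kcnj10 differed by -0.02 and -0.10 with diet. Aqp1, which is also on the choroid plexus list, was the only 1 past 2-fold, at -2.11 between the wild-type arrays, 1.79 between the heterozygous ones and 3.90 between the sucrose arrays. The list's median differences were 0.18 and 0.03 for diet and 0.11 and 0.04 for genotype.

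The glutamate genes had narrow ranges. Slc1a2 (GLT-1), the main glutamate transporter of the forebrain, had levels of 10.5, 10.9, 10.1 and 10.1. Its 4 values spanned 0.11 on the log2 scale, and its diet differences were 0.06 and 0.01. Slc1a3 (GLAST), the second astrocytic glutamate transporter, had levels of 16.4, 15.1, 16.5 and 15.0, so that both sucrose arrays were a little lower, by -0.11 and -0.13, and the genotype differences were 0.01 on starch and -0.01 on sucrose. The dimmer Slc1a3 probe, paired with another transcript, did not follow. Its levels were 0.405, 0.420, 0.543 and 0.528, higher on both heterozygous arrays by 0.42 and 0.33, with diet differences of 0.05 and -0.04.

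Glul, glutamine synthetase, which turns the glutamate taken up into glutamine, had levels of 44.8, 40.0, 43.0 and 37.8. Both sucrose arrays were lower than the starch arrays, with differences of -0.17 and -0.19, and its 3 probes were lower on sucrose in both genotypes (-0.30 to -0.16 in wild-type and -0.19 to -0.11 in heterozygous mice). Of 13 other genes of glutamate uptake, glutamine transport and glutamate metabolism, none passed 2-fold. Their median differences were 0.01 and -0.02 for diet and 0.05 and 0.00 for genotype. Of single genes the widest difference was -0.49, for the transporter Slc1a6 between diets in wild-type mice.

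The 2 astrocytic connexins differed from each other. Gjb6 (connexin 30) had levels of 9.11, 7.32, 8.04 and 6.54, and was the lowest of the 9 genes besides Gfap in both diet comparisons, at -0.32 between the wild-type arrays and -0.30 between the heterozygous ones. Both of its probes, on chromosome 14, were lower on sucrose in each genotype and in heterozygous mice on each diet, and the heterozygous sucrose array had 71.8% of the signal of wild-type mice on starch (67.4% for the dimmer probe). Gja1 (connexin 43) had levels of 1.14, 0.968, 1.03 and 1.09, with diet differences of -0.24 and 0.09.

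Gja1 had 5 probes above background. The dimmest of them, which the annotation pairs with a predicted transcript and aligns between positions 56097108 and 56107358 of chromosome 10 (mm9), was lower on both heterozygous arrays, by -0.75 and -0.58. Its levels were 0.0257, 0.0247, 0.0153 and 0.0165, in the dimmest quartile, where the single repeated probe gave an SD of 0.659. The 5 probes ran from -0.75 to 0.38 for genotype on starch and from -0.58 to 0.17 on sucrose. Of 9 other connexins and pannexins none passed 2-fold. Gjb2 (connexin 26), which is shared by astrocytes and meninges, was 0.50 higher in heterozygous mice on starch and 0.03 higher on sucrose.

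S100b, a calcium-binding protein, had levels of 20.5, 18.7, 20.6 and 17.98, with both sucrose arrays the lower ones, by -0.13 and -0.19. Sox9, the transcription factor that specifies glia, had levels of 1.12, 1.33, 1.47 and 1.49. The wild-type starch array was the lowest, and the genotype differences were 0.39 on starch and 0.17 on sucrose. The dimmer Sox9 probe ran the other way on that array, with levels of 0.176, 0.153, 0.145 and 0.164 and genotype differences of -0.28 and 0.10. Its diet difference in wild-type mice was -0.20, against 0.25 for the brighter probe. No direction for Sox9 with diet in wild-type mice or with genotype on starch was therefore shared by both probes.

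As a group, the 10 markers were slightly lower on sucrose in wild-type mice, and near the background share in heterozygous mice. In wild-type mice 8 of 10 were lower, as were 50.1% of all genes and 45.3% of the genes at least as bright as Gja1. The median difference was -0.19 against 0.00 over all genes. In heterozygous mice 6 of 10 were lower (49.9% of all genes, 56.7% of the bright ones), with a median of -0.11 against 0.00. For genotype the medians were 0.01 on starch and 0.08 on sucrose, with 6 and 5 of 10 higher (46.0% and 45.1% of all genes) and 4 and 5 lower (50.3% and 63.9% of the bright ones). Without Gfap the 4 medians were -0.17, -0.13, 0.01 and -0.01. Between heterozygous sucrose and wild-type starch 8 of 10 were lower (52.7% of all genes, 54.4% of the bright ones), with a median of -0.06. Comparisons that use the same array are not independent of each other.

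Counted at 2-fold, 0 of 10 markers passed for diet in wild-type mice (1.48% of all genes did), 0 in heterozygous mice (1.77%), 0 for genotype on starch (0.813%), 1 for genotype on sucrose (1.71%), 0 for heterozygous sucrose against wild-type starch (2.0%) and 1 for the interaction (2.88%). The 1 was Gfap in both cases. Among the genes at least as bright as Gja1 these shares were 0.22%, 0.197%, 0.0928%, 0.22%, 0.301% and 0.29%. The wild-type sucrose array was the lowest of the 4 for Gfap, Vim, Aqp4 and Gja1 (21.2% of all genes, 16.7% of the bright ones). The heterozygous sucrose array was the lowest for Slc1a3, S100b, Glul and Gjb6 (26.3% of all genes, 32.7% of the bright ones).

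**Figure D3:**
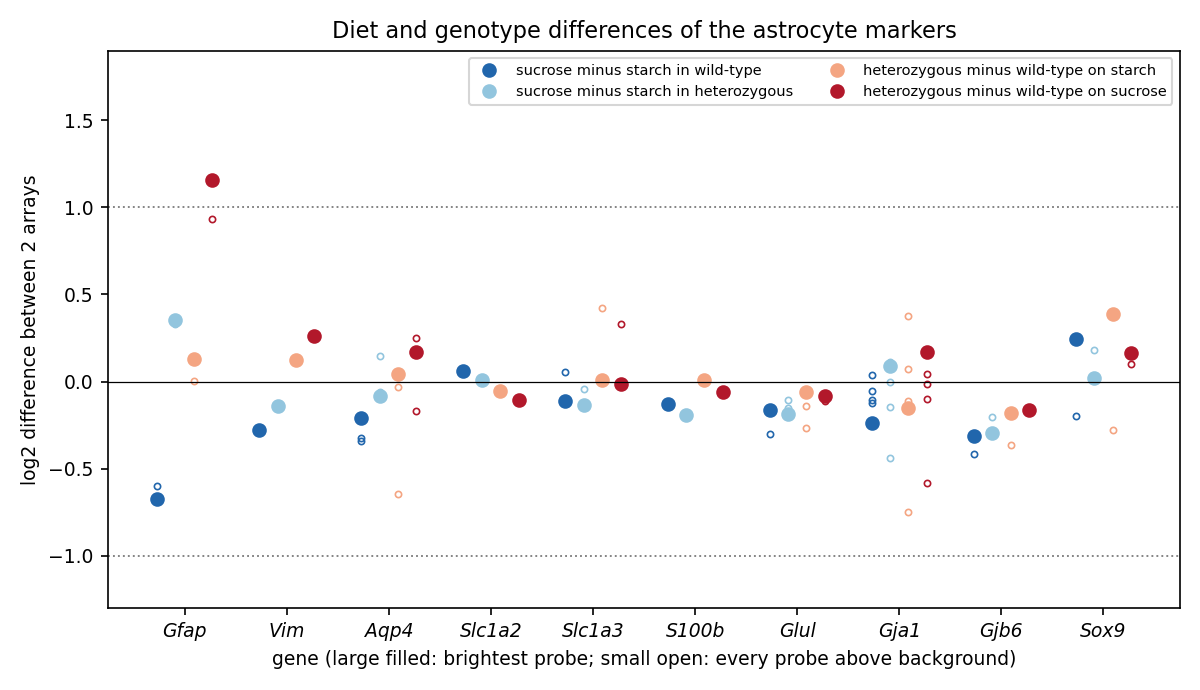
Log2 differences of the 10 markers for diet in each genotype and for genotype on each diet. Large filled points are brightest probes, small open points the further probes above background, and dotted lines mark 2-fold. Only the Gfap value for genotype on sucrose, 1.16, passes a dotted line.

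The design allows 1 fit with a residual degree of freedom, an additive model of diet and genotype in limma over all 42094 probes well above background, which takes the interaction as error. With Benjamini-Hochberg adjustment it called 0 of the 22 marker probes for diet and 0 for genotype. At an unadjusted p under 0.05 there were 1 probe for diet and 2 for genotype, against 8.8% and 6.42% of all probes. The 1 was Gjb6, with a mean diet difference of -0.31, an SE of 0.092 and a limma adjusted p of 0.553. For genotype they were the dimmest Gja1 probe, at -0.67 with an SE of 0.102, and the dimmer Slc1a3 probe, at 0.38 with an SE of 0.096, both with a limma adjusted p of 0.733. The brighter Gfap probe had a mean genotype difference of 0.64 with an SE of 0.288 and a limma adjusted p of 0.733, and its interaction of 1.03 enters that SE.

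A list of 40 other genes enriched in astrocytes was measured in full, with summed levels of 708.9, 661.2, 669.2 and 630.1 on the wild-type starch, wild-type sucrose, heterozygous starch and heterozygous sucrose arrays. The list had diet medians of -0.06 and -0.06 and genotype medians of -0.05 and -0.04. In the same order 26, 27, 25 and 24 of 40 genes were lower, against 50.1%, 49.9%, 54.0% and 54.9% of all genes. Among the genes at least as bright as Gja1 the shares were 45.3%, 56.7%, 50.3% and 63.9%. Of the widely used markers among the 40, Aldh1l1, the pan-astrocytic folate enzyme, differed by -0.12 and -0.15 with diet, and Aldoc, the brain aldolase, by -0.15 and -0.13. Their genotype differences on starch and sucrose were -0.15 and -0.18 for Aldh1l1 and -0.15 and -0.14 for Aldoc.

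By brightest probe, Slc6a11 and Agt were the 2 of the 40 past 2-fold, and a different array stood apart in each. Slc6a11 (GAT-3), the astrocytic GABA transporter, had levels of 0.691, 0.273, 0.256 and 0.263, high on the wild-type starch array alone, with differences of -1.34 between the wild-type arrays and -1.44 between the starch arrays. Agt, angiotensinogen, had levels of 0.376, 0.372, 0.326 and 0.679, high on the heterozygous sucrose array alone, with 1.06 for diet in heterozygous mice and 0.87 for genotype on sucrose. Fabp7, the fatty acid binding protein of radial glia and astrocytes, was named after its values were seen. Its levels were 6.63, 3.73, 6.62 and 5.99, with the wild-type sucrose array the lowest.

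Genes described in reactive astrocytes were taken from 3 lists. Of the general list, 10 of 11 genes were measured, without Gfap and Vim, and their medians were -0.23 and -0.16 for diet and -0.03 and 0.04 for genotype. With the mean over a gene's probes they were -0.48, -0.03, -0.23 and 0.06. Cd44, the hyaluronan receptor, differed by 0.20 and -0.02 between the wild-type and between the starch arrays in its brightest probe and by -1.66 and -2.19 in a dimmer one, high on the wild-type starch array alone (levels 0.0509, 0.0162, 0.0112 and 0.0146). Cxcl10 (levels 0.191, 0.0493, 0.0978 and 0.0545) and Lcn2 (0.187, 0.0795, 0.133 and 0.0800), both secreted in inflammation, were more than 2-fold lower on sucrose in wild-type mice, at -1.96 and -1.24, and lower in heterozygous mice at -0.84 and -0.74. The small heat shock gene Hspb1 was lower on both sucrose arrays, by -0.91 and -0.87. Serpina3n, a protease inhibitor of reactive astrocytes, had levels of 0.138, 0.117, 0.103 and 0.228, highest on the heterozygous sucrose array, with 1.15 for diet in heterozygous mice and 0.96 for genotype on sucrose. The brightest Cd44 probe was also highest on that array, with levels of 0.0994, 0.114, 0.0979 and 0.149, whereas Cxcl10, Lcn2 and Hspb1 were not.

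Of the genes described after inflammatory stimulation 11 of 12 were measured, and 10 of 11 were lower on sucrose in wild-type mice and 9 of 11 in heterozygous mice, with medians of -0.44 and -0.22 (50.1% and 49.9% of all genes were lower). Between genotypes 8 of 11 were lower in heterozygous mice on starch and 4 of 11 on sucrose (54.0% and 54.9% of all genes), with medians of -0.19 and 0.08. Psmb8, an immunoproteasome subunit, had the lowest value in wild-type mice (-0.87), and Gbp2, an interferon-induced GTPase, in heterozygous mice (-0.63). Amigo2, an adhesion protein, was lowest on the wild-type and highest on the heterozygous sucrose array, with levels of 0.113, 0.0749, 0.111 and 0.155 and a genotype difference of 1.05 on sucrose. Of the genes described after ischaemia 9 of 12 were measured. All 9 were lower on sucrose in wild-type mice (median -0.31, where 50.1% of all genes were lower) and 6 of 9 in heterozygous mice (median -0.08). On starch 7 of 9 were lower in heterozygous than in wild-type mice and on sucrose 2 of 9 (54.0% and 54.9% of all genes), with medians of -0.12 and 0.11. Cd109 was 1.37 higher on sucrose in heterozygous mice and 1.36 higher in heterozygous mice on sucrose, at levels between 0.0166 and 0.0430.

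**Figure D4:**
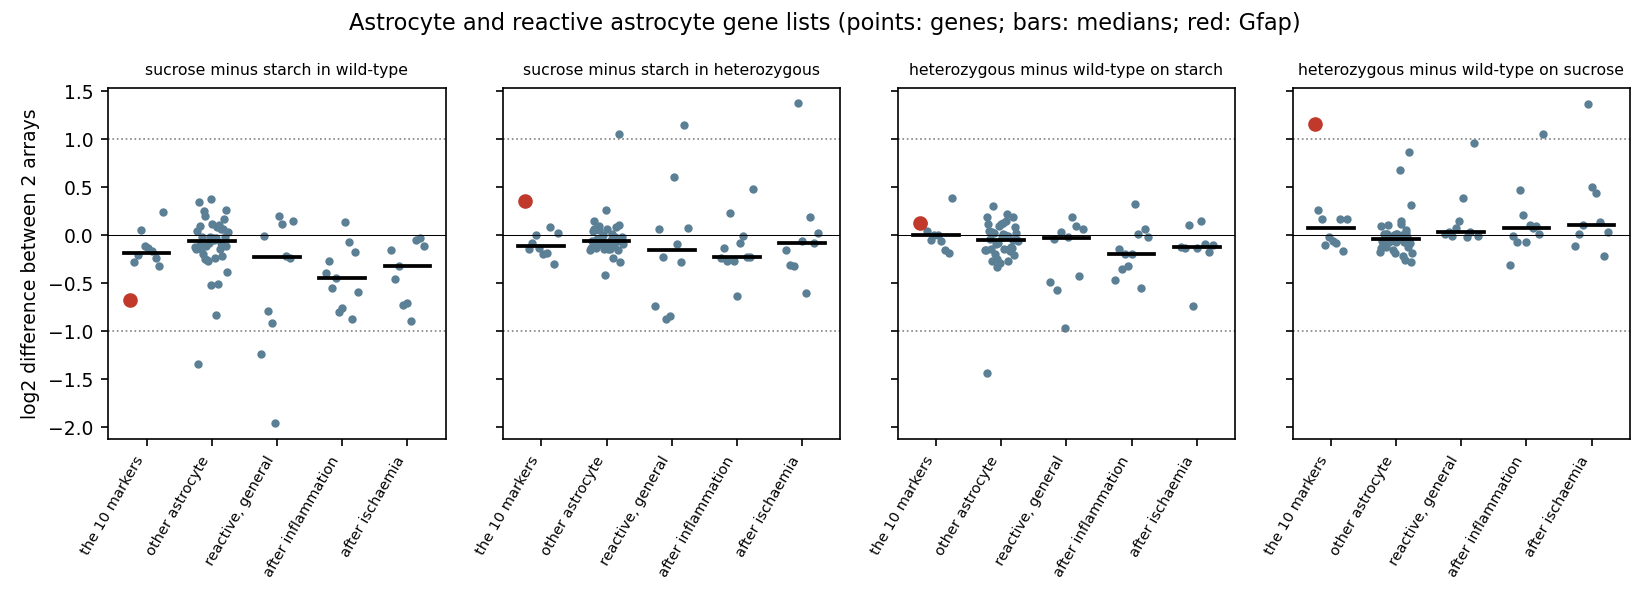
Log2 differences of the 10 markers, 40 other astrocyte genes and 3 lists of reactive astrocyte genes (10, 11 and 9 measured) in the 4 comparisons of diet and genotype. Points are genes, bars are list medians, Gfap is red and dotted lines mark 2-fold. The medians of the 3 reactive lists lie below 0 for diet in wild-type mice (-0.23, -0.44 and -0.31).

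Of 19 genes that act on Gfap transcription or gliogenesis through JAK-STAT, BMP, Notch, NFI or SoxE factors, none passed 2-fold by its brightest probe. Dimmer probes of 2 did, 1 of Stat3 (1.04 for genotype on starch) and 1 of Smad1 (1.31 between the wild-type arrays and -1.14 between the sucrose arrays). Stat3, which drives Gfap in reactive astrocytes, had levels of 3.33, 2.76, 3.13 and 2.77 in its brightest probe, lower on both sucrose arrays (-0.27 and -0.18). Socs3, its feedback inhibitor, differed by -0.47 and -0.20 with diet. Nfix, an NFI factor of gliogenesis, had levels of 3.07, 3.37, 2.92 and 3.85, highest on the heterozygous sucrose array, with diet differences of 0.14 and 0.40. The list's medians were -0.11 and -0.09 for diet and 0.10 and 0.02 for genotype.

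The Gfap pattern over the 4 arrays was most closely followed by Rerg, Cxcr4, Tcaf2, Zpld1 and 4930456L15Rik. Likeness was the root mean square difference of log2 values centred on each gene's mean, and it was 0.0523 to 0.0759 for these 5. Rerg had levels of 0.498, 0.336, 0.542 and 0.740. The other 4 were among probes of the dimmest quartile, and all 5 had a single probe above background. With 20654 genes compared over 4 arrays, such nearness is a description only. Among the other 9 markers Vim was the nearest to Gfap (0.317), with 879 genes nearer, and Gjb6 the farthest (0.484), with 15745 nearer.

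Markers of other cells and regions were set beside Gfap because it is abundant outside cortical grey matter. Ependymal genes were, like Gfap, high on the heterozygous sucrose array: 7 of 9 were lower on sucrose in wild-type mice (median -0.33), 8 of 9 higher on sucrose in heterozygous mice (1.23), and 9 of 9 higher in heterozygous mice on sucrose (1.27). Of all genes 50.1%, 50.1% and 45.1% lay on that side. On starch 7 of 9 were lower in heterozygous mice (median -0.22, 54.0% of all genes lower), where Gfap was 0.13 higher. Foxj1, the master regulator of motile cilia, had levels of 0.111, 0.0549, 0.0639 and 0.153. All 9 olfactory bulb genes were lower on sucrose in each genotype (medians -2.11 and -0.81, 50.1% and 49.9% of all genes lower) and higher in heterozygous than in wild-type mice on sucrose (median 1.15, 45.1% of all genes higher). Choroid plexus genes were higher on sucrose in heterozygous mice (9 of 9, median 4.11, 50.1% of all genes higher), and 8 of 9 also in wild-type mice (0.40, 49.9% higher), where Gfap was lower. For genotype on starch the olfactory bulb and choroid plexus medians were -0.04 and 0.05. The part of these cells and regions in the Gfap differences was not tested.

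Oligodendrocyte genes, which mark white matter, were 9 of 10 lower on sucrose in wild-type mice (median -0.10, 50.1% of all genes lower) and 9 of 10 higher in heterozygous mice on sucrose (0.14, 45.1% of all genes higher), with no gene past 2-fold. On sucrose in heterozygous mice 6 of 10 were lower (median -0.05, 49.9% of all genes), where Gfap was higher, and for genotype on starch the median was 0.01. The wild-type and heterozygous diet medians were -0.02 and -0.03 for microglial, -0.07 and -0.12 for endothelial, -0.01 and -0.05 for neuronal and -0.09 and 0.04 for oligodendrocyte precursor genes. In the same order of cell types, the genotype medians on starch and sucrose were -0.11 and -0.07, -0.04 and -0.03, 0.01 and -0.11, and -0.03 and 0.04. Of microglial genes 9 of 10 were lower in heterozygous mice on each diet (54.0% and 54.9% of all genes). With diet in wild-type mice microglial genes were 5 lower and 5 higher, from -0.78 (C1qa) to 0.13 (P2ry12). Endothelial genes were also 5 and 5, from -0.67 (Ly6c1) to 0.28 (Itm2a). Meningeal genes were 8 of 8 higher in heterozygous mice on sucrose, where their median was 0.19 and 45.1% of all genes were higher; the diet medians were 0.13 and 0.07 and the genotype median on starch 0.20. Striatal genes ran opposite to Gfap in each diet comparison, with a wild-type median of 0.88 and a heterozygous one of -0.92, and between the sucrose arrays (-1.21), but had the same sign as Gfap between the starch arrays, with a median of 0.81 and 10 of 11 genes higher (46.0% of all genes). Their part in the marker differences was not tested either.

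**Figure D5:**
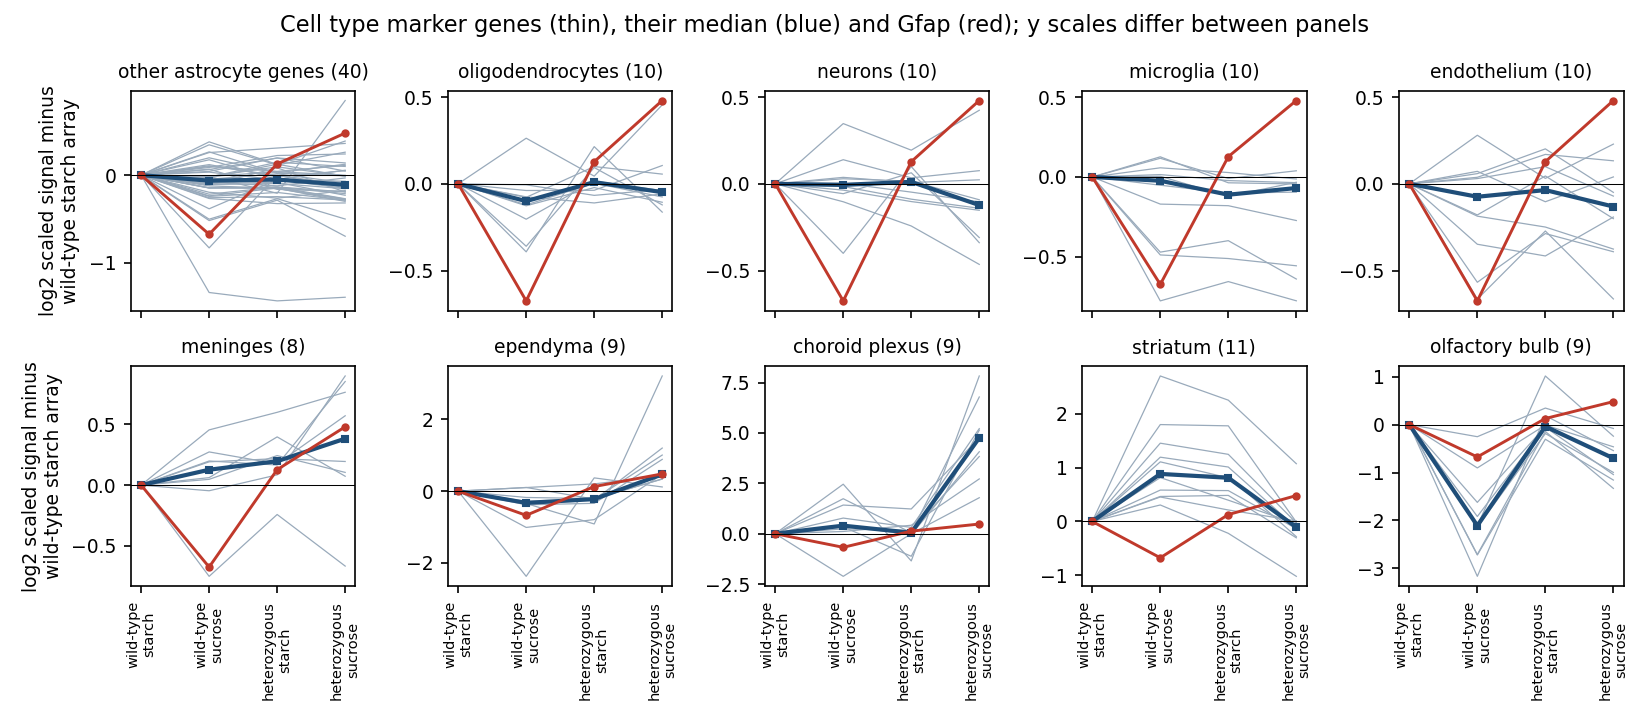
Log2 scaled signal relative to the wild-type starch array for genes of 10 marker lists (thin lines, number measured in brackets), the list median (blue) and Gfap (red) on the 4 arrays, with a separate y scale in each panel. Ependymal medians are -0.33 on the wild-type sucrose and 0.47 on the heterozygous sucrose array and the Gfap values there -0.68 and 0.48, while the choroid plexus median reaches 4.76.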

How the data were processed

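Per the submitters' processing notes, the arrays were read with Agilent Feature Extraction 11.5.1.1. Per the file headers, the authors' intensity values were detrended within each array, with surrogates for low signals and no step between arrays. The deposited series matrix holds a ratio per spot, which on comparison was the processed signal divided by a constant per array. Here each processed signal was divided by its array's 75th percentile and log2 was taken, outlier spots were left out and spots of a probe were averaged. Comparisons used the 42094 probes well above background on all 4 arrays, 35477 of them with a gene name, and the brightest probe of each of 20655 genes. Differences between single arrays carry no p-value and were counted at 2-fold. The additive fit used limma 3.58.1 in R 4.3.3, with Benjamini-Hochberg adjustment. A trial of the fit on simulated data used the same noise for all probes and planted no interaction. Spot error here differed with signal, so the trial does not show how the fit performs on these data. Counts and figures used Python 3.11.15. The closing section gives 9 alternatives.

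The 20 gene lists, the markers among them, were chosen with earlier results of these data known. Named are the 10 markers, the 5 genes nearest to Gfap, Glo1, and list genes past 2-fold or at either end of a comparison. Not all of these list genes are printed, and Aldh1l1, Aldoc, Stat3, Smad1 and Fabp7 were named in addition, after their values were seen. Coordinates and gene names are those of the files, on build mm9, and probes were not placed in exons or untranslated regions. The values of 1 gene are not reported here.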

Additional observations from a re-analysis of the deposited data

Results flagged for a closer look

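The diet difference of Gfap was -0.68 in wild-type mice and 0.35, of opposite sign, in heterozygous mice, each more than 3 times the SD of repeated spots. The difference between them, 1.03, was not tested, since each group is 1 array. The other 9 markers did not meet this condition for diet, and none of the 10 met it for genotype. Against the software's error of 0.204, only the wild-type diet difference of Gfap was more than 3 times as large. By that error Gfap would not meet the condition either.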

How the results depend on the processing

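The counts of markers past 2-fold and their median differences were recomputed under 9 alternatives: normexp background correction, median, quantile and cyclic loess scaling, the authors' matrix values, outlier spots kept, no filter, only probes above the median signal, and the mean over a gene's probes. The counts for the 5 comparisons of a pair of arrays were the same in each. For the interaction the count of 1 went to 0 under normexp, median scaling and the mean over probes, with the Gfap interaction running from 0.95 to 1.05 over the alternatives. Gfap kept its sign in every comparison and alternative, with ranges of -0.69 to -0.62 and 0.33 to 0.37 for diet, and 0.07 to 0.13 and 1.04 to 1.18 for genotype. The median for genotype on starch changed sign (-0.02 to 0.05), as did that for the interaction (-0.03 to 0.07), while the other 4 medians kept theirs. The mean over probes moved Sox9 from 0.39 to 0.06 for genotype on starch, and turned the sign of Gja1 for diet in heterozygous mice (0.09 to -0.08) and genotype on sucrose (0.17 to -0.10), of Aqp4 for genotype on starch (0.04 to -0.21) and diet in heterozygous mice (-0.08 to 0.00), of Slc1a3 for genotype on sucrose (-0.01 to 0.16) and heterozygous sucrose against wild-type starch (-0.13 to 0.13), and of the interaction of Sox9 (-0.22 to 0.08) and Glul (-0.02 to 0.06). Under the scaling and background alternatives the sign turned only for differences near 0; among these were the genotype differences of Slc1a3, S100b and Glul on sucrose, which were 0.05, 0.01 and 0.03 under quantile scaling. The medians of the other lists were also recomputed: 82 of 114 kept their sign in each alternative. Over the alternatives the diet medians of the general reactive list ran from -0.48 to -0.11 in wild-type and from -0.18 to -0.03 in heterozygous mice, those of the inflammatory list from -0.45 to -0.35 and -0.25 to -0.06, and those of the ischaemic list from -0.56 to -0.31 and -0.19 to -0.05, with no change of sign. For genotype the general list changed sign on starch (-0.23 to 0.05) and sucrose (-0.01 to 0.06). Over all genes, the count past 2-fold for diet in wild-type mice was 305, against 1577 with no filter, 105 under normexp and 65 above the median signal. It was 365 for diet in heterozygous mice (1461, 150 and 66), 168 for genotype on starch (1447, 48 and 20), 354 for genotype on sucrose (1530, 158 and 69), 413 for heterozygous sucrose against wild-type starch (1711, 147 and 90) and 594 for the interaction (2546, 228 and 89). Of the genes past 2-fold for genotype on starch 42.3% were higher, against 58.3% under normexp. In limma 0 markers were called for diet or genotype under any of 9 alternatives, which include a trended prior variance in place of the mean over probes; normexp called 28 probes and the trended prior 1 probe for diet over all probes, no marker among them. No paired analysis was possible because each group has 1 array, so there are no numbered replicates to pair; the additive limma fit compares each factor within the levels of the other. No array could be left out, since each comparison rests on 1 array a side.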
